A study of Mus musculus with 12 samples.

Results

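The expression of 36 genes of glycolysis and of the hypoxia response was followed in mouse neutrophils lying on plates coated with immune complexes (IC) or on a surface without them. The 36 genes were listed by name for their known roles, with earlier results of these data known. A gene was read by the transcript cluster (the set of array probes that reads its transcripts) naming it alone, or by a shared cluster where none did so, and where there were several, by that of highest mean. By this rule 34 of the 36 genes had a value among 28944 transcript clusters. *Gpi1*, which encodes glucose-6-phosphate isomerase, and *Eno1*, which encodes the main enolase, were not found in the annotation used and were not analysed here.

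Ly6G+ neutrophils came from the bone marrow of wild-type C57BL/6 mice and of *Card9*-/- mice. The latter carry the conventional *Card9*tm1Jrld deletion in every tissue and were backcrossed to C57BL/6 over at least 6 generations. The paper isolated neutrophils by hypotonic lysis and a Percoll gradient, and describes sorting by Ly6G for its check of the neutrophil-specific deletion. Cells of each genotype were kept for 4 h on either surface, the control surface carrying no immune complex, and 150 ng of total RNA per sample were labelled for an Affymetrix gene array. This gave 4 groups, the 2 genotypes on each of the 2 surfaces, with 3 arrays a group, and each of 3 experiments held all 4 groups. The study used mice of both sexes aged 2 to 6 months, and the number of mice behind a sample is not given. The p values of the comparisons averaged over experiments measure only the spread of these samples over the 3 experiments.

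Glycolysis splits glucose into pyruvate, and in neutrophils, which hold few mitochondria, it supplies much of the ATP. Its enzymes and glucose transporters are classical targets of hypoxia-inducible factor 1 (HIF-1), whose α subunit is hydroxylated by the prolyl hydroxylases PHD2 (*Egln1*) and PHD3 (*Egln3*) when oxygen is present and is then degraded. *Egln3* is itself a HIF target, so that the hydroxylase and the factor form a feedback loop.

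The deposited values are log2 signals, on which a difference of 1 is a change of 2-fold. The median signal of an array was 5.70 to 5.76 in experiment 1, 5.86 to 5.93 in experiment 2 and 5.27 to 5.39 in experiment 3, and arrays of different experiments correlated at 0.944 to 0.986 across clusters. The interquartile range of an array was 2.75 to 2.88, 2.71 to 2.84 and 3.04 to 3.32 in experiments 1, 2 and 3. In experiment 3 it was 3.32 on the control surface and 3.04 on IC in wild-type cells. In *Card9*-/- cells of that experiment it was 3.19 and 3.25. The deleted gene followed its label, with *Card9* at 8.08 to 8.75 in the 6 wild-type arrays and at 5.56 to 6.42 in the 6 *Card9*-/- arrays (averaged over the surfaces log2 difference −2.40, standard error (SE) 0.15, limma adjusted p = 6.80e-05). All 12 neutrophil markers were measured, with a summed signal between 15.69 and 15.92 (log2) in every array, and *Ly6g* lay between 11.84 and 12.64. Of the 8 marker lists for neutrophils and other cells, those of B cells and of erythroid cells varied most, at 9.28 to 12.81 and 10.49 to 14.15 (log2 of the summed signal), and no marker was at 0.

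**Figure D1:**
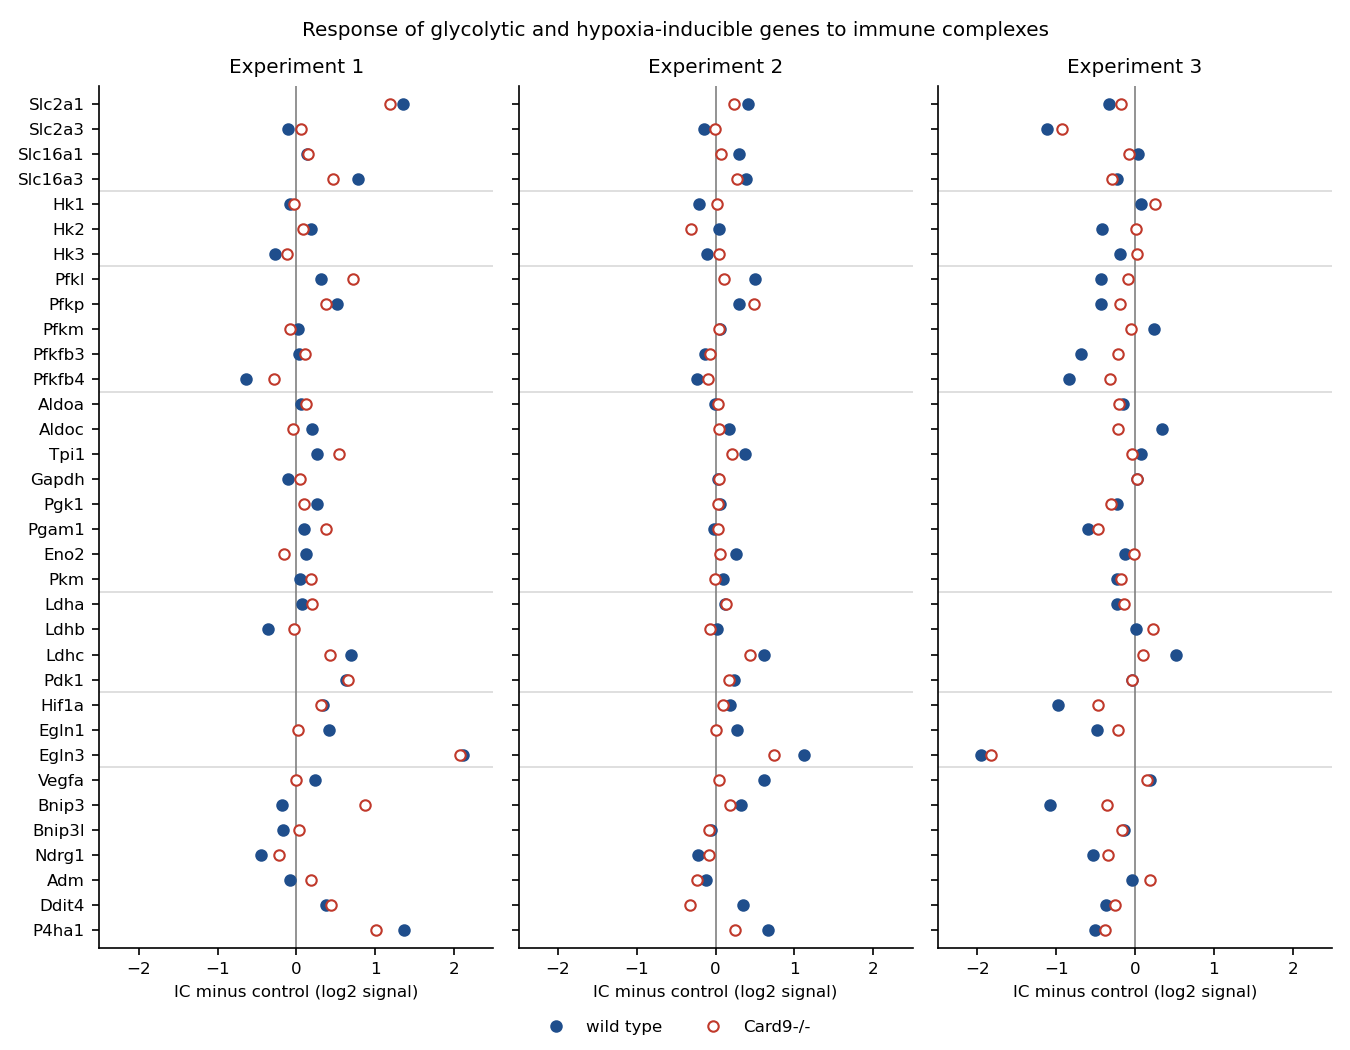
Response of the 34 measured genes to immune complexes in each experiment, as the log2 signal on IC minus that on the control surface, for wild-type cells (filled circles) and *Card9*-/- cells (open circles). Grey lines separate the groups of genes by role. *Egln3* lies far to the right in experiment 1 and far to the left in experiment 3 in both genotypes, and 9 of the 34 genes have a mean response above 0 in experiment 3 against 24 in experiment 1.

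The median response of these genes to immune complexes was above 0 in experiments 1 and 2 and below 0 in experiment 3. With both genotypes averaged, 24 of the 34 genes had a higher signal on IC in experiment 1, 24 in experiment 2 and 9 in experiment 3, and the median response was 0.14, 0.08 and −0.20 on the log2 scale. Over all clusters the median response was 0.01, −0.00 and 0.03. These clusters are not matched to the genes in signal, as 30 of the 34 genes lay above the median cluster. The part of signal level and of the spread of the arrays in these responses was not tested. The median size of the response, taken without its sign, was 0.09, 0.09 and 0.16 over all clusters. Over the 34 genes it was 0.20, 0.14 and 0.23. A total of 17 of the 34 genes were higher on IC in experiments 1 and 2 and lower in experiment 3, as were 13.4% of all clusters. A test of whether the response differed between the 3 experiments (limma F test) was added after the data had been seen. Its p values measure the spread between the 2 genotypes within an experiment, which stand in for repeats. It called 1 of the 34 genes at an adjusted p under 0.05, *Egln3*, which was also the single cluster called among 28944 (0.00345%). At an unadjusted p under 0.05 there were 12 of 34 genes beside 11.5% of all clusters, and they included 3 of 4 transporters, 2 of the 3 genes for HIF-1α and its hydroxylases and 0 of 3 hexokinases. The count of hexokinases includes *Hk1*, whose chosen cluster is doubtful, as described further on. In bulk RNA a lower level per cell and fewer cells that hold the transcript cannot be told apart.

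The promoters of the genes that moved most by experiment, and of *Ddit4*, which is described further on for its genotype difference, were searched for the core letters of the hypoxia response element, ACGTG and GCGTG, on both strands. ACGTG is also contained in the E-box CACGTG. Of the 36 genes, 33 had at least 1 promoter window in the RefSeq table of build GRCm38.p6 (none for *Slc2a3*, *Bnip3l* and *Ndrg1*), and 38 of their 48 windows of 300 bases (79.2%) held a match beside 43.8% of 32851 windows of the same length. Windows of 1 gene can overlap and share a match, as for *Aldoa*, *Eno1* and *Pfkm*. Both core letters contain CG, and windows of like CG content were not compared. The 250 bases before the start are printed 5′ to 3′ on the gene's strand with the matches in capitals, for *Slc2a1* (chr4:119108495-119108744, plus strand), *Egln3* (chr12:54203875-54204124, minus strand), *Ddit4* (chr10:59951771-59952020, minus strand) and *P4ha1* (chr10:59323046-59323295, plus strand).
Slc2a1: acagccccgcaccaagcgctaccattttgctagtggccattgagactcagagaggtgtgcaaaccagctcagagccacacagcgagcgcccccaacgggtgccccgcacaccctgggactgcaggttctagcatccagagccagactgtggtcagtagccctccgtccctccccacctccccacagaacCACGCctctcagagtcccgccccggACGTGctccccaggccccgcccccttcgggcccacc
Egln3: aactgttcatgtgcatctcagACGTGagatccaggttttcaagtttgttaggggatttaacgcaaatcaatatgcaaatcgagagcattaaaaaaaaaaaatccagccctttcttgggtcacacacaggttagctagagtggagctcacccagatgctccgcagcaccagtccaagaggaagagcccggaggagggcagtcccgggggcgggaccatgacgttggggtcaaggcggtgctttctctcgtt
Ddit4: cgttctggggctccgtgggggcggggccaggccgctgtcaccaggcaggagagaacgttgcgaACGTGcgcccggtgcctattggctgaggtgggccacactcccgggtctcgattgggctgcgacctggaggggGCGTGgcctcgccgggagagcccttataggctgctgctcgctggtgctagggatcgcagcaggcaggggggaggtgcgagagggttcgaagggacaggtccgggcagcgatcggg
P4ha1: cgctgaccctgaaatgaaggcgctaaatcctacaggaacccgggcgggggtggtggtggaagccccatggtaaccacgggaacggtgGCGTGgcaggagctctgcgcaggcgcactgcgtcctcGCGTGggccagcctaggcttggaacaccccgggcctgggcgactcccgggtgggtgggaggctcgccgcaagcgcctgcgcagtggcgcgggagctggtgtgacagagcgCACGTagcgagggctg
Counted from the start, the matches began at −61 and −36 in *Slc2a1*, at −229 in *Egln3*, at −187 and −115 in *Ddit4* and at −163, −126 and −16 in *P4ha1*. In all 4 the window held no CACGTG. The first match in *Slc2a1* and the last in *P4ha1* are on the opposite strand and so appear as CACGC and CACGT. *Egln3*, with the strongest response by experiment, had 1 match and *P4ha1* 3. Windows with 3 or more matches made up 8.93% of the table and 12 of the 48 windows of these genes. A match describes the letters of the window and marks no binding site.

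*Egln3* encodes PHD3, the oxygen-dependent hydroxylase that marks HIF-α for degradation. In wild-type cells its signal in experiments 1, 2 and 3 was 7.83, 8.65 and 8.14 on the control surface and 9.95, 9.78 and 6.18 on IC. In *Card9*-/- cells it was 7.57, 8.41 and 7.94 on the control surface and 9.65, 9.15 and 6.11 on IC. In both genotypes the 2 highest arrays were those on IC in experiments 1 and 2 and the lowest was that on IC in experiment 3, so that the groups of the 2 surfaces overlapped. The mean response was a rise of 4.28-fold in experiment 1 (log2 2.10), a rise of 1.91-fold in experiment 2 (log2 0.93) and a fall of 3.72-fold in experiment 3 (log2 −1.90), with an adjusted p of 5.75e-05 for the difference between experiments. In size, 6, 30 and 8 of the 28944 clusters responded more strongly in experiments 1, 2 and 3. The genotypes lay 0.05, 0.38 and 0.13 apart in these responses. Averaged over the experiments the response of *Egln3* was 0.43 in wild-type cells (SE 0.71, n = 3, adjusted p = 0.855) and 0.33 in *Card9*-/- cells (SE 0.71, n = 3, adjusted p = 1.00), with intervals from −1.13 to 1.99 and from −1.23 to 1.88. Without experiment 1 it was −0.42 and −0.55 (adjusted p = 0.889 and 0.999), and without experiment 2 it was 0.08 and 0.12. Without experiment 3 it was 1.62 and 1.41 (SE 0.32 each, adjusted p = 0.187 and 1.00), and the test between the remaining experiments gave an adjusted p of 1.00.

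*P4ha1* encodes the catalytic subunit of the collagen prolyl 4-hydroxylase and is a HIF target. Wild-type signals in experiments 1, 2 and 3 were 6.64, 7.63 and 6.87 on the control surface and 8.01, 8.29 and 6.37 on IC. In *Card9*-/- cells, with the control surface set against IC here and in what follows, they were 6.71, 7.32 and 6.92 against 7.72, 7.56 and 6.54. The signal on IC was above that on the control surface in experiments 1 and 2 and below it in experiment 3 in both genotypes, with mean responses of 1.18, 0.45 and −0.44 (adjusted p = 0.0736 for the difference between experiments).

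*Slc2a1* encodes GLUT1, a glucose transporter induced by HIF. Its wild-type signals were 9.56, 10.33 and 10.02 in experiments 1, 2 and 3 on the control surface and 10.92, 10.74 and 9.70 on IC. Those of *Card9*-/- cells were 9.43, 9.58 and 9.84 against 10.62, 9.82 and 9.67. The direction by experiment was that of *P4ha1* in each genotype, with mean responses of 1.27, 0.32 and −0.25 (adjusted p = 0.0984 between experiments). In experiment 1 the signal was 2.42-fold higher on IC, a response exceeded in size by 39 of the 28944 clusters.

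*Slc2a3* encodes GLUT3, the high-affinity glucose transporter of myeloid cells, and its mean response was below 0 in all 3 experiments. On the control surface wild-type signals were 12.24, 12.06 and 11.90 in experiments 1, 2 and 3, and on IC 12.14, 11.91 and 10.78. Signals of *Card9*-/- cells were 12.12, 12.002 and 11.63 against 12.17, 11.99 and 10.70. Only the IC arrays of experiment 3 stood apart, in both genotypes, and the mean responses were −0.02, −0.08 and −1.02 (adjusted p = 0.0634 between experiments).

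*Hif1a* encodes the oxygen-regulated subunit of HIF-1. In wild-type cells its signals were 11.14, 11.21 and 10.40 on the control surface and 11.47, 11.40 and 9.43 on IC in experiments 1, 2 and 3. In *Card9*-/- cells they were 10.49, 10.92 and 9.97 against 10.81, 11.02 and 9.50. Experiment 3 held the lowest signal of every group, and the mean responses were 0.32, 0.14 and −0.72 (unadjusted p = 0.00257, adjusted p = 0.131 between experiments). The hydroxylase gene *Egln1* (PHD2) responded by 0.22, 0.14 and −0.35 (adjusted p = 0.439).

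The other 7 genes with an unadjusted p under 0.05 between experiments did not pass the adjusted test, with adjusted p values from 0.122 to 0.424. *Pgam1* (phosphoglycerate mutase) responded by 0.24, 0.00 and −0.53 in experiments 1, 2 and 3. *Pfkp*, the platelet-type phosphofructokinase, responded by 0.45, 0.39 and −0.31. *Slc16a3*, which encodes the lactate exporter MCT4, responded by 0.62, 0.33 and −0.26. *Pdk1*, a kinase that shuts off pyruvate dehydrogenase, gave 0.64, 0.20 and −0.04. *Bnip3*, a HIF target of mitochondrial autophagy, gave 0.35, 0.25 and −0.71, but its genotypes disagreed in experiment 1 (−0.18 in wild-type and 0.87 in *Card9*-/- cells). *Ddit4* gave 0.41, 0.01 and −0.31, and its genotypes disagreed in experiment 2 (0.35 in wild-type and −0.33 in *Card9*-/- cells). *Pgk1* (phosphoglycerate kinase) gave 0.18, 0.04 and −0.26. All 7 had their lowest response in experiment 3.

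Because the 2 genotypes share no array, their responses can be set side by side within an experiment. Across the 34 genes they correlated at 0.855, 0.703 and 0.846 in experiments 1, 2 and 3, and at 0.758, 0.567 and 0.752 without *Egln3*. Across all 28944 clusters the same correlations were 0.132, 0.155 and 0.391. The 2 sets differ in signal, as 30 of the 34 genes lay above the median cluster. Clusters of like signal were not compared. The responses of experiments 1 and 2 correlated at 0.853 across the 34 genes (0.758 without *Egln3*), and those of experiments 1 and 3 at −0.499 (−0.0556 without *Egln3*). Genes are not independent replicates, and both responses come from the same experiment, so that these values are descriptions with no test.

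Of the marker lists of neutrophils and other cells, 0 genes were called in the test between experiments. The median response of the 12 neutrophil markers was −0.01, −0.01 and −0.21 in experiments 1, 2 and 3, with 4 of 12 above 0 in each and a range from −0.86 (*Cxcr2*) to 0.32 (*S100a9*) in experiment 3. The 7 B cell markers had medians of 0.03, 0.07 and 0.51, with 5 of 7 above 0 in experiment 3 and a range there from −0.18 (*Ighm*) to 1.34 (*Cd79a*). The 8 T and NK cell markers had medians of −0.00, −0.02 and 0.25, with 5 of 8 above 0 and a range from −0.37 (*Nkg7*) to 0.79 (*Cd3g*) in experiment 3. The 8 monocyte and macrophage markers had medians of 0.11, −0.01 and 0.06, with 5 of 8 above 0 in experiment 3. The 10 erythroid markers had medians of −0.28, −0.23 and 0.13, with 8 of 10 above 0 in experiment 3. An unadjusted p under 0.05 was found for *Cxcr2*, *Itgam*, *Csf1r*, *Cd68*, *Cd79a*, *Cd79b* and *Cd3g*. The summed signal of the B cell markers ranged from 9.54 to 11.93 in wild type control, 9.97 to 12.33 in wild type IC, 9.32 to 12.46 in *Card9*-/- control and 9.28 to 12.81 in *Card9*-/- IC arrays. The part of these markers in the responses above was not tested.

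**Figure D2:**
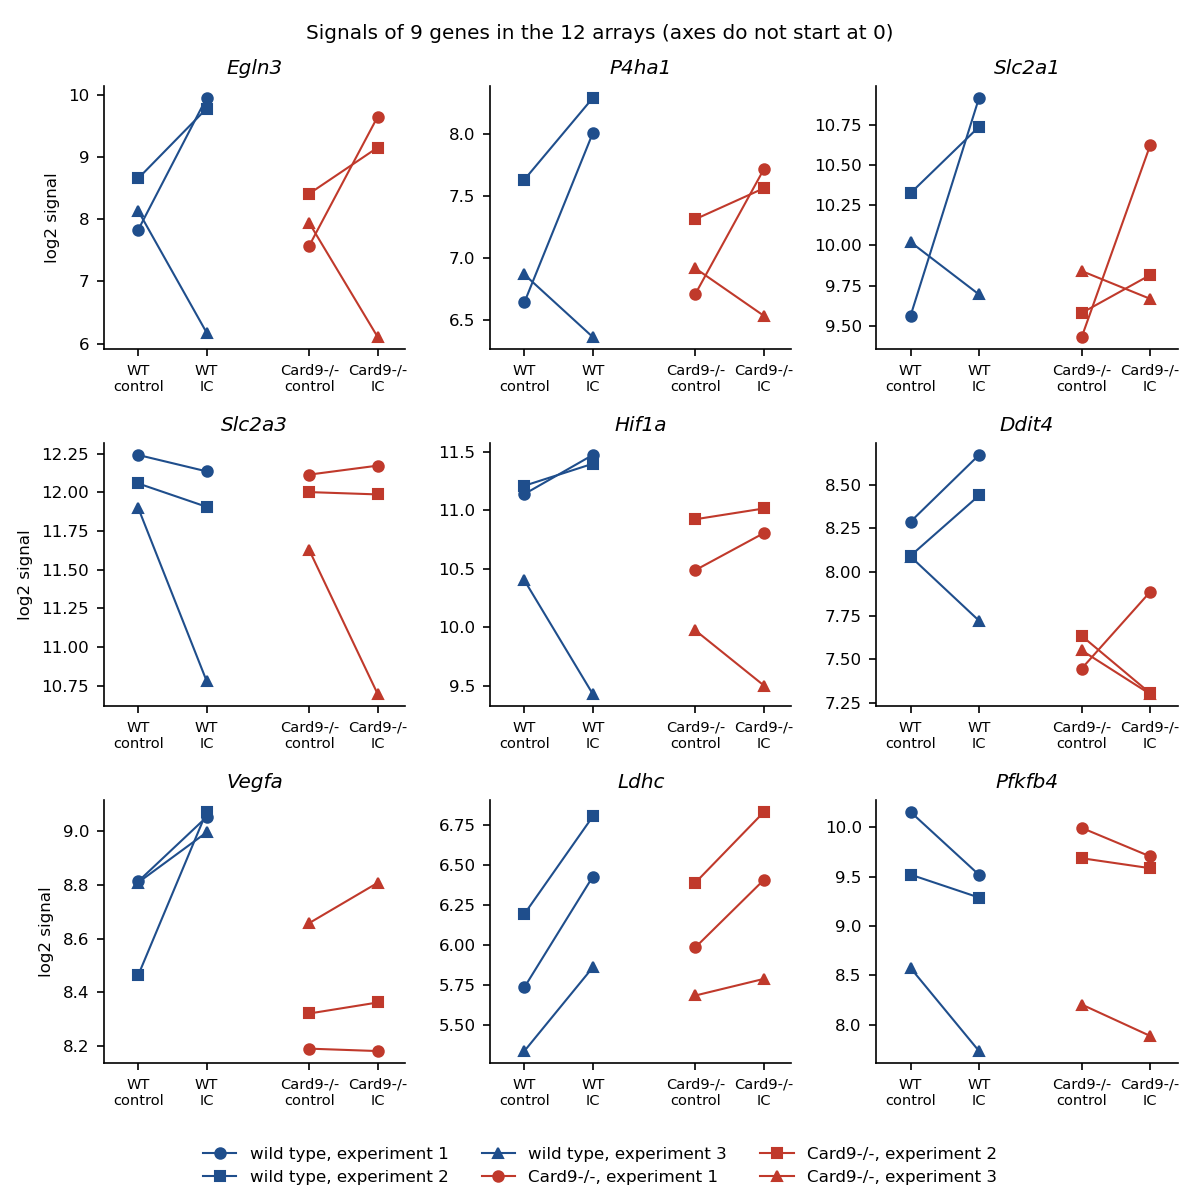
Log2 signals of 9 genes in all 12 arrays, with a line joining the control and IC arrays of an experiment (circles, experiment 1, squares, experiment 2, triangles, experiment 3) in wild-type cells (blue) and *Card9*-/- cells (red). *Egln3* on IC reads 9.95 and 9.78 in experiments 1 and 2 and 6.18 in experiment 3 in wild-type cells, whereas the lines of *Ldhc* all slope up and those of *Pfkfb4* all slope down.

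Averaged over the 3 experiments, no gene of the list passed the test for IC against control. In wild-type cells 0 of 34 genes were called by limma at an adjusted p under 0.05 (0.0% of all clusters), and 5 had an unadjusted p under 0.05 (9.59% of all clusters), 3 of them higher (5.18%) and 2 lower (4.41%). In *Card9*-/- cells 0 were called (0.0% of all clusters) and 1 had an unadjusted p under 0.05 (3.01%), which was higher (1.87%), beside 0 lower (1.15%). The fitted responses ran from −0.57 to 0.61 in wild-type cells, with 17 genes above and 17 below 0 and a median of 0.01, beside a median of 0.04 over all clusters. In *Card9*-/- cells the median was 0.02, again with 17 genes on each side. With the genotypes averaged, 0 of 34 were called (0.0104% of all clusters) and 6 had an unadjusted p under 0.05 (9.01%), 3 of them higher (4.53%) and 3 lower (4.48%). Leaving out experiment 3 raised the wild-type median to 0.13 (0.01 over all clusters) and the number of genes with an unadjusted p under 0.05 to 12 (11 higher and 1 lower) beside 9.06% of clusters, and in *Card9*-/- cells to 10, all higher, beside 3.1%, with 0 called in either genotype. Without experiment 1 the medians were −0.07 in wild-type (14 of 34 genes above 0) and −0.04 in *Card9*-/- cells (12 of 34), and without experiment 2 they were −0.04 (14 of 34) and 0.04 (20 of 34), again with 0 called. Without experiment 1, 4 genes had an unadjusted p under 0.05 in wild-type cells (2 higher and 2 lower), beside 6.63% of clusters. Without experiment 2 there were 2 (1 higher and 1 lower), beside 6.98%. In *Card9*-/- cells there were 0 and 0, beside 2.18% and 3.22%. Shares of all clusters by direction were not counted in these fits.

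Among the transporters, *Slc2a3* was the member with the lowest mean response (−0.38, SE 0.15, unadjusted p = 0.0287, adjusted p = 0.516), and that value rests on experiment 3, as given above. *Slc2a1* had a wild-type response of 0.48 (SE 0.31, adjusted p = 0.625). *Slc16a3* (MCT4) had wild-type signals of 10.35, 10.95 and 11.34 on the control surface and 11.13, 11.33 and 11.11 on IC in experiments 1, 2 and 3, and *Card9*-/- signals of 10.57, 10.76 and 11.11 against 11.03, 11.04 and 10.82. On IC all 3 wild-type arrays lay above all 3 *Card9*-/- arrays, by 0.23 on average (SE 0.19, adjusted p = 0.788). *Slc16a1*, which encodes the lactate transporter MCT1, ranged from 5.84 to 6.78 over the 12 arrays, with unadjusted p values above 0.05 in each comparison. None of the 4 transporters passed the adjusted test.

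The first step of glycolysis is catalysed by hexokinases. *Hk3*, the hexokinase typical of myeloid cells, read 9.30, 9.09 and 8.94 on the control surface and 9.02, 8.97 and 8.75 on IC in wild-type cells, and 9.60, 9.15 and 8.75 against 9.49, 9.19 and 8.77 in *Card9*-/- cells. It was lower on IC in all 3 wild-type experiments, by 0.19 (SE 0.12, adjusted p = 0.613), and the groups overlapped. *Hk2*, the hexokinase inducible by HIF, ranged from 6.99 to 8.70, with all 4 arrays of experiment 3 (6.99 to 7.41) below the other 8. Its responses were −0.06 in wild-type and −0.07 in *Card9*-/- cells (SE 0.13, adjusted p = 0.891 and 1.00). The value of *Hk1* is doubtful. The chosen cluster read 11.70, 11.52 and 12.15 on the control surface and 11.62, 11.31 and 12.22 on IC in wild-type cells, and 11.83, 11.64 and 12.02 against 11.79, 11.66 and 12.27 in *Card9*-/- cells. It rests on 1 accession that 18 clusters cite, 16 of which name the ribosomal protein gene *Rpl17*. A second cluster for *Hk1*, with 8 accessions, ranged from 8.03 to 9.11 and gave a response of −0.16 in *Card9*-/- cells where the chosen one gave 0.08, and neither passed the test. With the genotypes averaged, the second cluster responded by −0.001, −0.11 and −0.50 in experiments 1, 2 and 3. The chosen one responded by −0.06, −0.09 and 0.16.

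The committed step is run by phosphofructokinase-1 (*Pfkl*, *Pfkp*, *Pfkm*), and the bifunctional enzymes of *Pfkfb3* and *Pfkfb4* set the level of its activator fructose-2,6-bisphosphate. *Pfkfb4* was lower on IC in all 3 experiments in both genotypes. Its wild-type signals were 10.15, 9.52 and 8.58 on the control surface and 9.52, 9.29 and 7.74 on IC, and its *Card9*-/- signals were 9.99, 9.69 and 8.21 against 9.70, 9.59 and 7.89. The groups overlapped, and experiment 3 lay lowest on both surfaces. The response was −0.57 in wild-type cells (1.48-fold lower, SE 0.13, unadjusted p = 0.0011, adjusted p = 0.334) and −0.24 in *Card9*-/- cells (SE 0.13, adjusted p = 1.00), a difference of 0.33 between the responses (interval −0.07 to 0.74, adjusted p = 0.999). *Pfkfb3* gave −0.26 and −0.05 (SE 0.14, adjusted p = 0.576 and 1.00). *Pfkm*, the muscle-type enzyme, read 5.57, 5.78 and 5.23 against 5.59, 5.83 and 5.48 in wild-type and 5.68, 5.72 and 5.63 against 5.60, 5.77 and 5.58 in *Card9*-/- cells, each first on the control surface and then on IC, and was 1 of 4 genes of the list below the median of all clusters (5.66). The others were *Aldoc*, *Eno2* and *Adm*.

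The 8 genes from aldolase to pyruvate kinase had average responses between −0.17 and 0.24 in wild-type cells. *Aldoa*, the main aldolase of blood cells, lay between 11.88 and 12.18 in the 12 arrays, and *Pkm*, pyruvate kinase, between 11.25 and 11.79. *Tpi1*, triosephosphate isomerase, had wild-type signals of 8.80, 9.09 and 9.17 on the control surface and 9.05, 9.47 and 9.25 on IC, and *Card9*-/- signals of 8.50, 8.99 and 9.36 against 9.04, 9.20 and 9.32. It was higher on IC in 5 of 6 pairs, by 0.24 with the genotypes averaged (SE 0.09, unadjusted p = 0.0266, adjusted p = 0.51). *Aldoc*, the brain-type aldolase, read 5.72, 5.63 and 5.19 against 5.92, 5.80 and 5.53 in wild-type cells on the 2 surfaces and 5.71, 5.80 and 5.38 against 5.67, 5.85 and 5.17 in *Card9*-/- cells. Its wild-type response of 0.24 (SE 0.10, unadjusted p = 0.0441, adjusted p = 0.507) stood beside −0.07 in *Card9*-/- cells, with overlap of the groups. *Pgk1* read 10.89, 10.94 and 11.31 on the control surface and 11.15, 10.998 and 11.08 on IC in wild-type cells, and 11.12, 11.07 and 11.40 against 11.22, 11.10 and 11.10 in *Card9*-/- cells, with unadjusted p values above 0.05 in each comparison. *Gapdh*, read only by 25 clusters that also name other genes, gave 12.99, 12.87 and 13.13 against 12.88, 12.89 and 13.15 in wild-type cells and 12.90, 12.95 and 13.11 against 12.94, 12.99 and 13.13 in *Card9*-/- cells, each first on the control surface and then on IC, all within 12.87 to 13.15. *Eno2*, the neuronal enolase, lay between 4.82 and 5.96.

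At the fate of pyruvate, *Ldhc*, the lactate dehydrogenase known from testis, was the gene of the list with the smallest p for the surface. Its signals on the control surface and on IC were 5.73, 6.19 and 5.34 against 6.43, 6.80 and 5.86 in wild-type cells of experiments 1, 2 and 3, and 5.99, 6.39 and 5.68 against 6.41, 6.83 and 5.79 in *Card9*-/- cells. It was higher on IC in 6 of 6 pairs, with overlap between the groups, and experiment 3 lay lowest on both surfaces. Its mean signal was 6.12, beside a median of 5.66 over all clusters. The response was 0.61 in wild-type cells (1.53-fold, SE 0.10, unadjusted p = 6.54e-05, adjusted p = 0.189) and 0.32 in *Card9*-/- cells (SE 0.10, unadjusted p = 0.00761, adjusted p = 1.00), and 0.47 with the genotypes averaged (SE 0.07, adjusted p = 0.0846). *Ldhc* lies next to *Ldha* in the genome. *Ldha*, the lactate dehydrogenase of glycolytic cells, ranged from 10.79 to 11.87 and gave −0.01 and 0.07 (adjusted p = 0.977 and 1.00). *Ldhb* read 5.96, 6.29 and 6.61 against 5.60, 6.30 and 6.62 in wild-type cells on the control surface and on IC, and 5.81, 6.39 and 6.93 against 5.77, 6.32 and 7.16 in *Card9*-/- cells, with larger differences between the experiments than between the groups. *Pdk1* ranged from 5.04 to 6.42, with a mean response of 0.27 (SE 0.12, unadjusted p = 0.0418, adjusted p = 0.543).

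Of the remaining HIF targets, *Ndrg1*, a stress-responsive gene, was lower on IC in 6 of 6 pairs. Its wild-type signals were 9.40, 9.58 and 9.50 on the control surface and 8.95, 9.36 and 8.97 on IC, without overlap, and its *Card9*-/- signals were 9.95, 9.68 and 9.25 against 9.73, 9.59 and 8.91. The responses were −0.40 (SE 0.17, unadjusted p = 0.0381, adjusted p = 0.499) and −0.22 (SE 0.17, adjusted p = 1.00). *Bnip3l*, which encodes the mitophagy receptor NIX, read 12.12, 12.03 and 12.05 against 11.95, 11.97 and 11.91 in wild-type cells on the 2 surfaces, also without overlap, and 12.02, 12.14 and 11.95 against 12.05, 12.06 and 11.78 in *Card9*-/- cells. Its wild-type response was −0.12 (SE 0.10, adjusted p = 0.68). With *Vegfa*, given below, 3 of the 34 genes had groups without overlap between the surfaces in wild-type cells, beside 1.72% of all clusters, and 0 did so in *Card9*-/- cells, beside 0.922%.

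**Figure D3:**
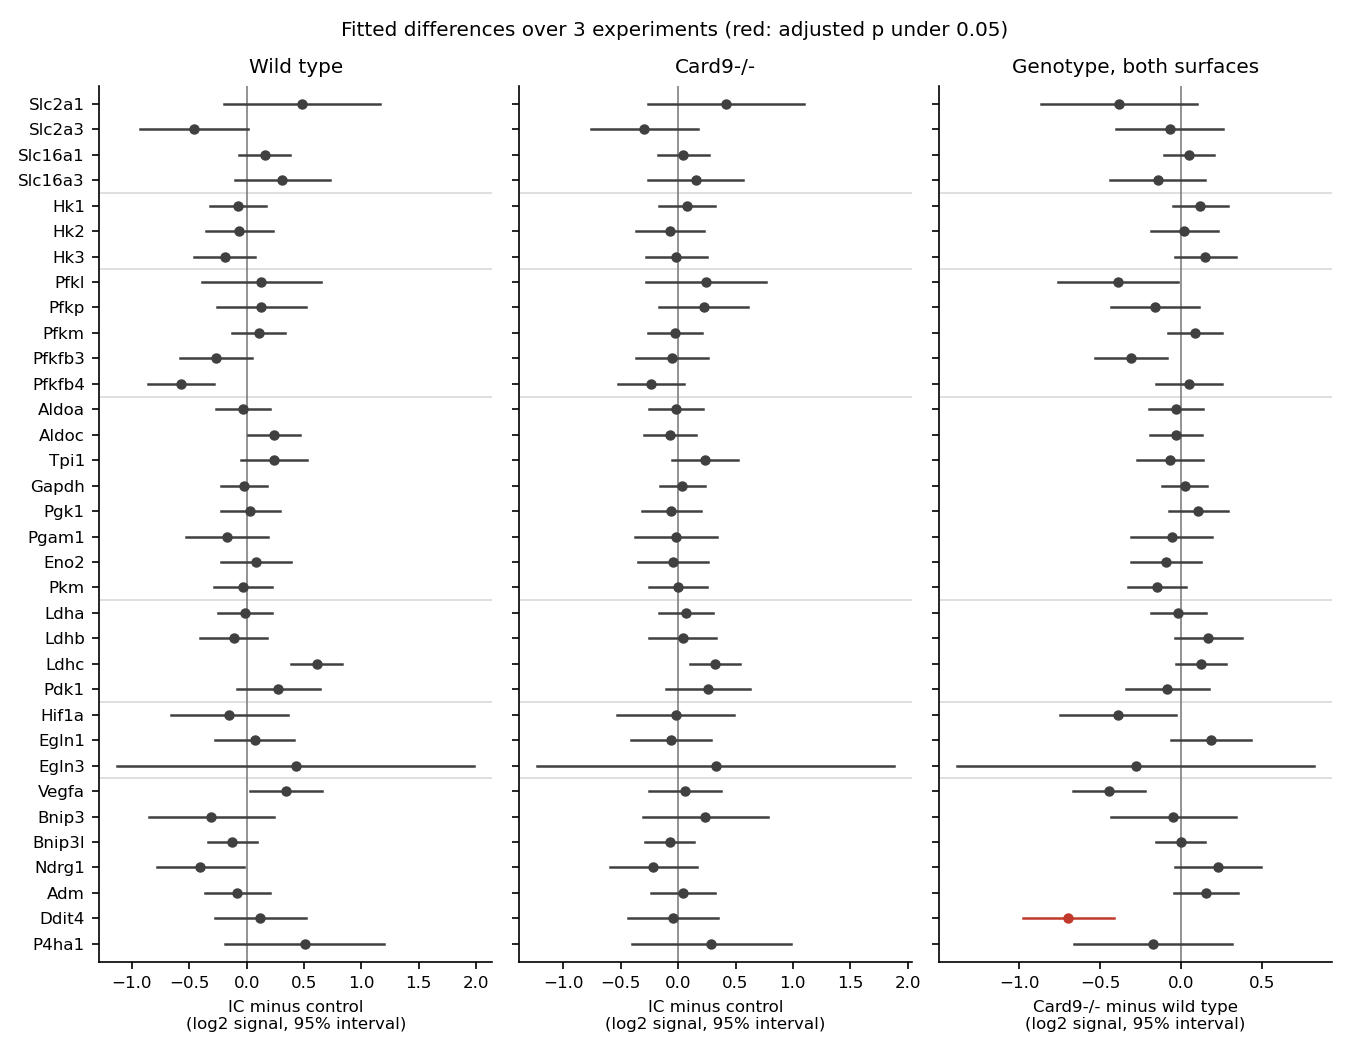
Fitted log2 differences of the 34 genes with 95% intervals (limma, 3 experiments), for IC minus control in wild-type cells (left) and *Card9*-/- cells (middle) and for *Card9*-/- minus wild type averaged over both surfaces (right). *Ddit4*, in red at −0.70 in the right panel, is the only gene of the 34 with an adjusted p under 0.05 in these panels, and the interval of *Egln3* for the surface spans from −1.13 to 1.99 in wild-type cells.

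The genotypes differed in 1 of the 34 genes. With both surfaces averaged, 1 gene was called lower in *Card9*-/- cells and 0 higher, beside 0.529% of all clusters, and 5 genes had an unadjusted p under 0.05 (10.1%), 0 of them higher (4.78%) and 5 lower (5.31%). On the control surface 0 were called (0.038% of all clusters) and 3 had an unadjusted p under 0.05 (4.64%), 1 higher (2.43%) and 2 lower (2.22%). On IC 0 were called (0.162%) and 2 had an unadjusted p under 0.05 (9.13%), 0 higher (4.03%) and 2 lower (5.1%). Medians were −0.06 on the control surface, −0.02 on IC and −0.04 for both, beside 0.03, −0.01 and 0.01 over all clusters. The comparisons on the 2 surfaces and those of the surfaces share arrays and are not independent of each other.

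The gene called was *Ddit4*, which encodes REDD1, a stress-induced inhibitor of mTORC1. On the control surface its signal in experiments 1, 2 and 3 was 8.29, 8.09 and 8.09 in wild-type and 7.45, 7.64 and 7.55 in *Card9*-/- cells. On IC it was 8.67, 8.44 and 7.72 in wild-type and 7.89, 7.31 and 7.30 in *Card9*-/- cells. It was lower in *Card9*-/- cells in 6 of 6 pairs, without overlap of the groups on the control surface and with overlap on IC. The difference averaged over the surfaces was −0.70 (1.62-fold lower, SE 0.13, interval −0.97 to −0.42, limma adjusted p = 0.0414), with −0.61 on the control surface (SE 0.18, adjusted p = 0.938) and −0.78 on IC (SE 0.18, adjusted p = 0.153). The call was lost without experiment 1 (−0.64, adjusted p = 0.241), without experiment 2 (−0.65, adjusted p = 0.434), with each array centred on its median (−0.71, adjusted p = 0.0579) and without the experiment as a block (−0.70, adjusted p = 1.00).

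*Vegfa*, which encodes the angiogenic growth factor VEGF-A, was lower in *Card9*-/- cells in 6 of 6 pairs but did not pass the adjusted test. Its wild-type signals were 8.81, 8.46 and 8.81 on the control surface and 9.05, 9.07 and 8.996 on IC, and its *Card9*-/- signals were 8.19, 8.32 and 8.66 against 8.18, 8.36 and 8.81. In wild-type cells the IC arrays lay above the control arrays, and on IC the wild-type arrays lay above those of *Card9*-/- cells, in each case without overlap. The genotype difference was −0.59 on IC (1.51-fold lower, SE 0.14, adjusted p = 0.182) and −0.31 on the control surface (SE 0.14, adjusted p = 0.954). The response to IC was 0.35 in wild-type (SE 0.14, unadjusted p = 0.0343, adjusted p = 0.493) and 0.06 in *Card9*-/- cells (SE 0.14, adjusted p = 1.00), with a difference of −0.28 between the responses (interval −0.73 to 0.16, adjusted p = 0.999).

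*Pfkfb3*, the inducible fructose-2,6-bisphosphate synthase of immune cells, had wild-type signals of 8.83, 9.18 and 8.42 and *Card9*-/- signals of 8.49, 8.67 and 8.03 on the control surface in experiments 1, 2 and 3. On IC the wild-type signals stood at 8.86, 9.04 and 7.73 against 8.60, 8.60 and 7.82 in *Card9*-/- cells. The difference was −0.41 on the control surface (SE 0.14, unadjusted p = 0.0143, adjusted p = 0.954) and −0.31 for both surfaces (SE 0.10, unadjusted p = 0.0106, adjusted p = 0.298). *Hif1a* (−0.39, SE 0.16, adjusted p = 0.445) and *Pfkl*, the liver-type phosphofructokinase (−0.39, SE 0.17, adjusted p = 0.457), were the other genes with an unadjusted p under 0.05. *Hif1a* was lower in *Card9*-/- cells in all 3 control pairs and, on average of the surfaces, by 0.66, 0.33 and 0.18 in experiments 1, 2 and 3. On IC its difference was −0.67, −0.38 and 0.07, so that it was not lower in experiment 3. *Pfkl* gave −0.77, −0.52 and 0.12 on average of the surfaces, also with the other direction in experiment 3.

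Differences in the other direction reached at most 0.32, for *Ndrg1* on IC (higher in 2 of 3 experiments, SE 0.17, limma adjusted p = 0.63). *Ldhb* and *Hk3* were each higher by 0.24 on IC, in all 3 experiments (SE 0.13 and 0.12, adjusted p = 0.63 and 0.60). *Adm*, which encodes the vasodilator peptide adrenomedullin, read 5.07, 5.11 and 5.08 in wild-type and 5.16, 5.44 and 5.31 in *Card9*-/- cells on IC, without overlap, and 5.15, 5.24 and 5.11 against 4.98, 5.68 and 5.11 on the control surface, a difference of 0.22 on IC (SE 0.13, adjusted p = 0.667). *Egln1* read 5.98, 6.71 and 6.22 against 6.52, 6.84 and 6.30 in wild-type and *Card9*-/- cells on the control surface and 6.39, 6.98 and 5.74 against 6.54, 6.85 and 6.08 on IC, a difference of 0.25 on the control surface (SE 0.16, adjusted p = 0.954). *Ldhc* was higher by 0.27 on the control surface (SE 0.10, unadjusted p = 0.0215, adjusted p = 0.954). Groups without overlap on IC were found for 3 of the 34 genes (*Slc16a3*, *Vegfa* and *Adm*), beside 1.87% of all clusters, and on the control surface for *Ddit4*, beside 1.42%.

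The test of whether the response to IC differed between the genotypes called 0 of 34 genes (0.0% of all clusters) and found 0 with an unadjusted p under 0.05, beside 3.68% of all clusters (1.03% higher and 2.65% lower). The intervals remain wide, for example −0.60 to 0.02 for *Ldhc* (difference −0.29) and −0.63 to 0.02 for *Aldoc* (difference −0.31). The levels of markers of other cells follow, and their part in these differences was not tested. With the surfaces averaged, all 7 measured B cell markers had a higher signal in *Card9*-/- cells, with a median of 0.51 (1.27, −0.00 and 0.47 in experiments 1, 2 and 3). All 10 markers of eosinophils, basophils and mast cells did so too, with a median of 0.37 (−0.16, 0.18 and 1.10). The 10 measured erythroid markers, of which *Hbb-b1* and *Hbb-bt* hold identical values, had a median of −0.20 (−0.58, −0.26 and 0.30), and the value for *Hba-a1* on the control surface in experiment 1 was −3.95. The 12 neutrophil markers had a median of 0.00 (0.01, 0.14 and −0.15), and no marker of these lists was called. Beside them, the difference of *Ddit4* was −0.81, −0.80 and −0.48 in experiments 1, 2 and 3.

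Lists of other genes of these pathways, chosen for their roles with earlier results of these data known, showed few calls. Of 22 other genes of glycolysis and gluconeogenesis, 0 were called for the response to IC in either genotype (0.0% of all clusters) and 1 for the genotype averaged over surfaces (0.529%). It was *Slc2a6*, a lysosomal hexose transporter, lower in *Card9*-/- cells by 0.78, 0.84 and 1.05 on IC in experiments 1, 2 and 3 (on average −0.89, SE 0.16, adjusted p = 0.0695, and −0.67 for both surfaces, SE 0.12, adjusted p = 0.0349). In the same list *Pdk3*, a pyruvate dehydrogenase kinase, responded to IC by −0.43 in wild-type cells (SE 0.12, adjusted p = 0.416) and *Pklr*, the liver and red cell pyruvate kinase, by 0.27 (SE 0.10, adjusted p = 0.467). *Slc2a8* and *G6pc3* gave 0.10 and −0.24 in that comparison, and *Minpp1* and *Eno3* gave 0.09 and −0.20 for the genotype on IC, with adjusted p values from 0.608 to 0.918.

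Of 14 genes of the pentose phosphate pathway and of glycogen metabolism, 11 had a lower signal on IC in wild-type and 12 in *Card9*-/- cells, with medians of −0.19 and −0.07, and 0 were called (0.0%). Of all clusters 40.3% and 53.6% had a lower signal, with medians of 0.04 and −0.01. *Ugp2*, which makes UDP-glucose for glycogen, responded by −0.37 in wild-type cells (SE 0.12, adjusted p = 0.438) and *Rpe*, ribulose-phosphate 3-epimerase, by −0.32 (SE 0.10, adjusted p = 0.438). For the genotype on IC the same genes gave 0.31 and 0.21 (adjusted p = 0.467 and 0.558).

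Of 28 other genes of the HIF pathway and its targets, 0 were called for the response in either genotype (0.0% of all clusters) and 1 for the genotype averaged over surfaces (0.529%). It was *Bhlhe40*, a hypoxia-inducible transcriptional repressor, at −0.99 for both surfaces (SE 0.17, adjusted p = 0.0368) and −1.11 on IC (SE 0.25, adjusted p = 0.127, lower in 3 of 3 experiments without overlap). *Hilpda*, which encodes a hypoxia-inducible lipid droplet protein, responded to IC by 0.94, 1.06 and 1.25 in wild-type cells in experiments 1, 2 and 3 (on average 1.08, SE 0.21, unadjusted p = 0.000294, adjusted p = 0.272), without the change of direction seen for *Egln3*, and gave −0.86 for *Card9*-/- against wild type on IC (SE 0.21, adjusted p = 0.182). *Mif*, which encodes a cytokine, responded by 0.45 in wild-type cells without overlap (SE 0.19, adjusted p = 0.498), *Wsb1* by −0.35 and *Gbe1* by −0.24. Between experiments 5 of the 28 had an unadjusted p under 0.05, beside 11.5% of all clusters, and 0 were called, beside 0.00345%. These 5, named after their values were seen, were *Ankrd37* (1.16, 0.67 and −1.02), the histone demethylase gene *Kdm3a* (0.41, 0.19 and −0.82), *Ero1a* of the endoplasmic reticulum (0.83, 0.24 and −0.25), *Arnt*, the partner of HIF-α (0.00, −0.03 and −0.61), and *Bhlhe40* (0.71, 1.09 and 0.12).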

How the data were processed

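RNA of 12 neutrophil samples (4 groups, 3 experiments) was measured on Affymetrix gene arrays. The authors deposited 1 table of log2 values per transcript cluster, and the background correction and normalization behind it are not given in the sources consulted. That the scale is log2 was read from the range of the values (0.868 to 13.8). Raw array files were not used here, nor was the study's own table of fold changes and p values.

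Of 35556 rows, 6612 control rows were left out and 28944 were tested, 476 of them with values identical to an earlier row. Differences were fitted with limma 3.58.1 in R 4.3.3 (group means, the experiment as a block, 6 residual degrees of freedom, moderated standard errors) and p values were adjusted by Benjamini-Hochberg over all clusters. No filter on low signals was used. The test of the response between experiments had 5 residual degrees of freedom and was chosen after seeing the data. Tables and figures were made with Python 3.11.15, numpy 2.4.6, pandas 2.3.3, scipy 1.17.1 and matplotlib 3.10.9, and the fits were tested on simulated data. The number of arrays limits the precision, and intervals are 95% intervals of the fit.

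Group and experiment came from the sample labels. Deviations from the group means correlated at 0.671 to 0.867 between arrays of the same experiment (18 pairs) and at −0.727 to 0.355 between others (36 pairs), so the experiment pairs the arrays. The members and gene lists were chosen with earlier results of these data known. Values in every array are given for members with an adjusted p under 0.05 and, per comparison, for up to 4 members in each direction with the smallest p among those with 1 direction in all 3 experiments, and for the genes that led the test between experiments, chosen after seeing their values. Genes of other lists were named by the same rule with up to 2 in each direction for the wild-type response and the genotype on IC. Alternatives were quantile normalization, median centring, other moderation and block choices, a filter on signal, the mean of all clusters of a gene, and leaving out each experiment.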

Additional observations from a re-analysis of the deposited data

Results flagged for a closer look

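The response of *Egln3* to immune complexes differed between the experiments, with an adjusted p of 5.75e-05 in the limma F test over all 28944 clusters. Both genotypes had a higher signal on IC in experiment 1 (2.12 in wild-type and 2.07 in *Card9*-/- cells on the log2 scale) and in experiment 2 (1.12 and 0.74), and a lower one in experiment 3 (−1.96 and −1.83). The test was chosen after seeing the data.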

How the results depend on the processing

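With 1 experiment left out, 3 to 13 of the 34 genes changed sign in the response to IC of one genotype or the other, and 1 to 6 in the 3 genotype comparisons. Among them were *Egln3* without experiment 1 (from 0.43 to −0.42 in wild-type cells) and *Hif1a* without experiment 3 (from −0.15 to 0.26). The median response over the genes was 0.01 in wild-type cells and −0.066 to 0.135 with 1 experiment left out, 0.02 and −0.044 to 0.060 in *Card9*-/- cells, and 0.01 and −0.039 to 0.116 with the genotypes averaged. For the genotype on IC it was −0.02 and −0.037 to 0.0098. For the genotype averaged over surfaces, 1 of the 34 genes was called, 2 with the experiment as a random block (*Vegfa* was added, adjusted p = 0.048) and 0 in the factorial linear model without moderation or block and after median centring. Leaving out 1 experiment gave 0 to 1. The median over the genes was −0.04, and −0.054 among clusters above the median signal, −0.058 after median centring and −0.039 to −0.0076 with 1 experiment left out. On the control surface the median was −0.06, −0.116 after median centring and −0.081 to −0.030 with 1 experiment left out. For the response between experiments 1 gene was called, 3 among clusters above the median signal and 3 with limma's trend, both chosen after seeing the data, and 0 to 1 with 1 experiment left out. *Egln3* kept an adjusted p from 2.81e-05 to 0.0284 in these alternatives, except without experiment 3, where its range of responses fell from 3.99 to 1.17 (adjusted p = 1.00).

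Without the replicate block, which treats the arrays of an experiment as unpaired, 0 genes were called for the genotype averaged over surfaces, and *Ddit4* had an adjusted p of 1.00. It changed no other call among the 34 genes in the planned comparisons. Over all clusters the number called without the block was 1 in place of 11 on the control surface, 0 in place of 47 on IC, 0 in place of 3 for the surface averaged over genotypes and 3 in place of 153 for the genotype averaged over surfaces.

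The same 4 counts were 0, 0, 0 and 1 in the factorial model. With the random block they were 7 for the wild-type response (0 in the fit reported), 105 on IC and 19 for the surface, and after median centring 22 on IC and 100 for the genotype. Fitting only the arrays compared gave 7 on the control surface and 173 on IC, and robust moderation gave 6 on the control surface. With 1 experiment left out they were 1 to 51 for the wild-type response, 2 to 7 on the control surface, 3 to 116 on IC, 0 to 24 for the surface and 9 to 204 for the genotype. For the response between experiments the count was 1, against 198 among clusters above the median signal, 221 with the trend, 2 after quantile normalization and 0 to 5 with 1 experiment left out. The cause of these differences was not tested. With 3 arrays a group, differences smaller than the intervals given cannot be told from 0.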

Other observations

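The level of the 34 genes, apart from their response, also varied by experiment. As deposited, 21 of them had their lowest mean signal in experiment 3, 7 in experiment 2 and 6 in experiment 1. After each array was centred on its median these counts were 11, 15 and 8.

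The pentose phosphate pathway gene *Pgls*, named after its values were seen, responded to IC by −0.06, −0.04 and 0.84 in experiments 1, 2 and 3 (limma F test, adjusted p = 0.0753), whereas *Pgd* of the same pathway gave 0.05, −0.06 and −0.54 (adjusted p = 0.305).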
